A study of Mus musculus with 12 samples.

Results

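The renin-angiotensin and kallikrein-kinin genes comprise 9 listed mouse genes, and all 9 were found among the 24532 gene IDs of the kidney tables by matching Entrez Gene IDs to symbols. They were Ren1, Agt, Ace, Agtr1a, Enpep, Mme, Klk1, Kng1 and Bdkrb2, listed by name. Earlier results of these data were known when the list was chosen. Total RNA of whole kidneys from mice fasted overnight was sequenced in 12 libraries, 3 in each of 4 groups. The groups were FXR KO mice given GW4064, FXR KO mice given vehicle, WT mice given GW4064 and WT mice given vehicle. FXR KO mice carried the Nr1h4tm1Gonz/J allele, a disruption of the farnesoid X receptor gene in the whole animal, and WT mice were C57BL/6. GW4064 is a synthetic agonist of this bile acid receptor, and its treatment time was 6 h. The labels state neither age nor sex, nor the strain background of the FXR KO mice, nor whether libraries came from separate animals or whether FXR KO and WT mice were littermates. The p-values therefore measure the spread between these libraries.

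Renin, released by juxtaglomerular cells of the afferent arteriole, cuts angiotensinogen to angiotensin I, which angiotensin-converting enzyme turns into angiotensin II. Angiotensin II constricts vessels and drives sodium retention through the type 1 receptor, and peptidases of the proximal tubule brush border break it down. In the opposing system, tissue kallikrein of the connecting tubule frees kinins from kininogen, and kinins dilate vessels and promote sodium excretion through the B2 receptor until kininases, among them angiotensin-converting enzyme and neprilysin, degrade them.

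Libraries held 2.86 to 4.27 mapped gigabases and 16693 to 17186 gene IDs above 0. Nr1h4 itself ranged from 105 to 134 TPM (a level scaled to transcript length and library total) in the 6 FXR KO libraries and from 189 to 267 TPM in the 6 WT libraries, so transcripts of the disrupted gene were still counted. Kidney markers were abundant, with 7 markers of the S1 and S2 proximal tubule summing to 5301 to 6540 TPM in FXR KO and 6047 to 6510 TPM in WT libraries. Of 6 adrenal markers, 2 were at 0 in every library, and their sum stayed at or below 2.49 TPM in FXR KO and 2.11 TPM in WT libraries. The sum of 6 urothelium markers was 18.2 to 21.0 TPM in WT GW4064 and 36.6 to 40.4 TPM in WT vehicle libraries. It was 20.8 to 53.1 TPM in FXR KO GW4064 and 17.6 to 35.1 TPM in FXR KO vehicle libraries. That of 6 fat markers was 163 to 290 TPM in FXR KO and 148 to 221 TPM in WT libraries. How far the tissue taken differed between libraries was not tested. Differences below are on the log2(TPM + 0.5) scale from limma, each with its standard error, and a gene was called at a Benjamini-Hochberg adjusted p under 0.05 over 14488 genes tested. The comparisons share libraries, so they are not independent of each other. In whole kidney, fewer cells of a type and less RNA per cell cannot be told apart.

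Both genotypes showed the same broad ladder of levels. Klk1 stood far above the other members at 3250 to 3850 TPM and ranked 15 of 24532 IDs by mean level. Mme, Enpep, Ace, Agt and Ren1 shared the next step at group means of 70.4 to 144 TPM. Agtr1a followed at 32.4 to 46.9 TPM. Kng1 (1.16 to 6.69 TPM) and Bdkrb2 (0.524 to 1.43 TPM) lay lowest. In WT vehicle kidneys the order was Mme, Enpep, Ace, Ren1, Agt, and the ranges of Ace and Ren1, and of Ren1 and Agt, overlapped. In WT GW4064 kidneys the order of the 5 genes was the same, with no overlap between neighbours. In both FXR KO groups the order was Mme, Ace, Enpep, Agt, Ren1, and each neighbouring pair overlapped.

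**Figure D1:**
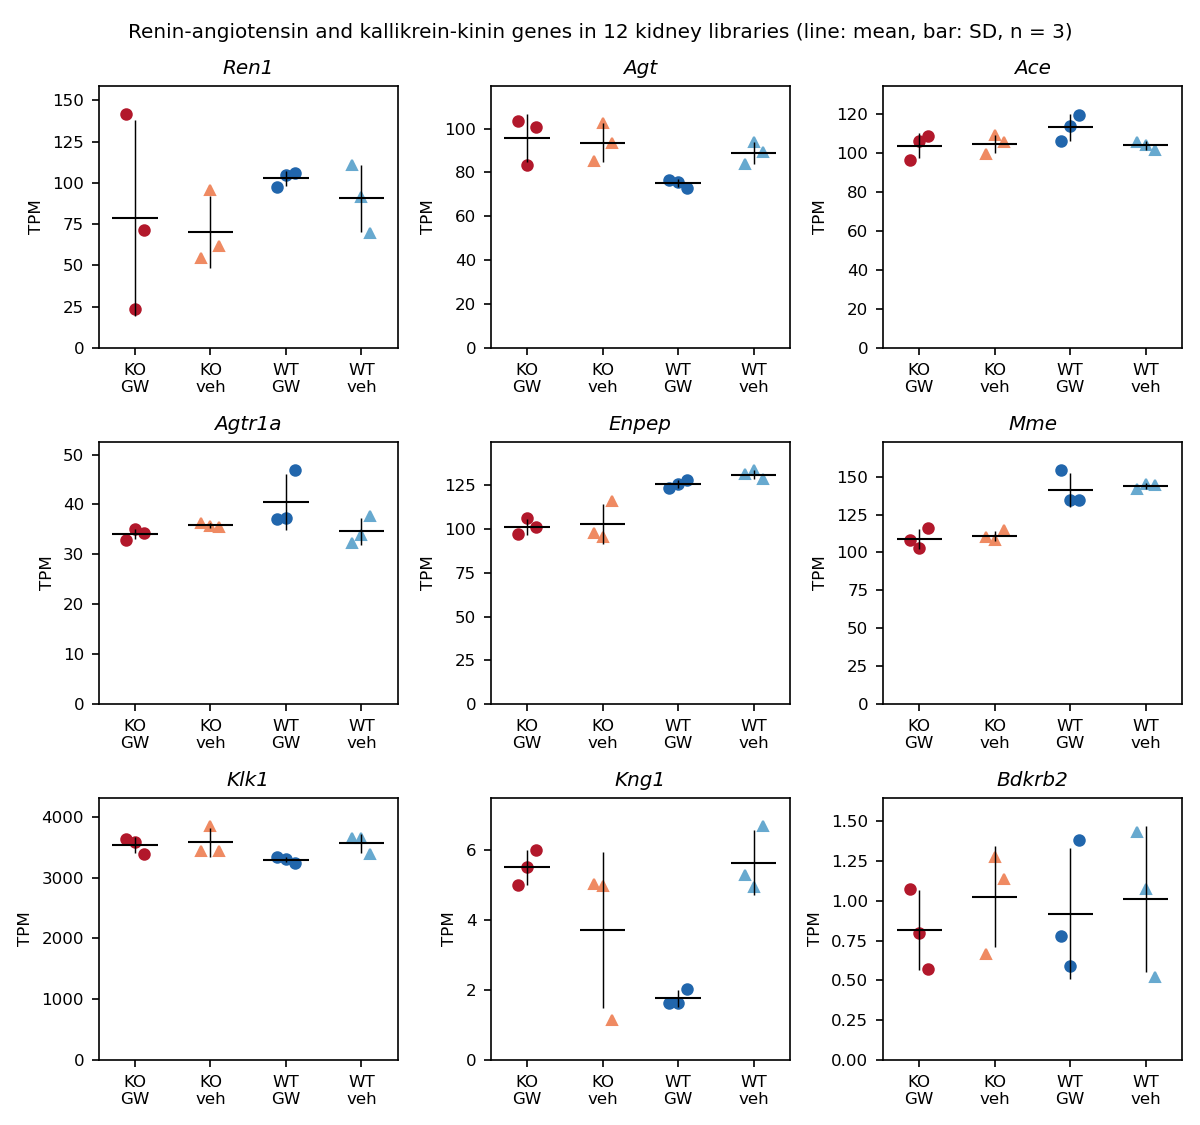
TPM of the 9 genes (y axis, from 0) in each library (points), by group (x axis: FXR KO with GW4064, FXR KO with vehicle, WT with GW4064, WT with vehicle), with the mean as a line and the SD as a bar (n = 3). Mme and Enpep sit lower in all 6 FXR KO libraries than in all 6 WT libraries, Kng1 falls into a low and a high cluster, and Ren1 spreads widely among FXR KO libraries.

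FXR KO kidneys had less mRNA of the peptidases Enpep and Mme than WT kidneys on either treatment, and Agt and Kng1 were called higher in FXR KO than in WT under GW4064 and not on vehicle. Of the 9 genes, 2 were called between FXR KO and WT on vehicle, both lower in FXR KO, against 12.9% of all tested genes called. Under GW4064, 4 of 9 were called, 2 lower and 2 higher in FXR KO, against 18.5% of all tested genes. Averaged over both treatments, 3 of 9 were called, with Enpep and Mme lower and Agt higher, against 26.5% of all tested genes. The median difference of the 9 genes was 0.005 on vehicle, -0.12 under GW4064 and -0.06 averaged, beside medians of -0.09, -0.03 and -0.06 over all tested genes. GW4064 lowered 1 of 9 genes in WT kidneys (Kng1), where 4.80% of tested genes were called. In FXR KO kidneys limma called 0 of 9, where 0.0138% of tested genes (2 genes) were called, and none of the 9 had an unadjusted p under 0.05. The smallest unadjusted p there was 0.0805, for Kng1.

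**Figure D2:**
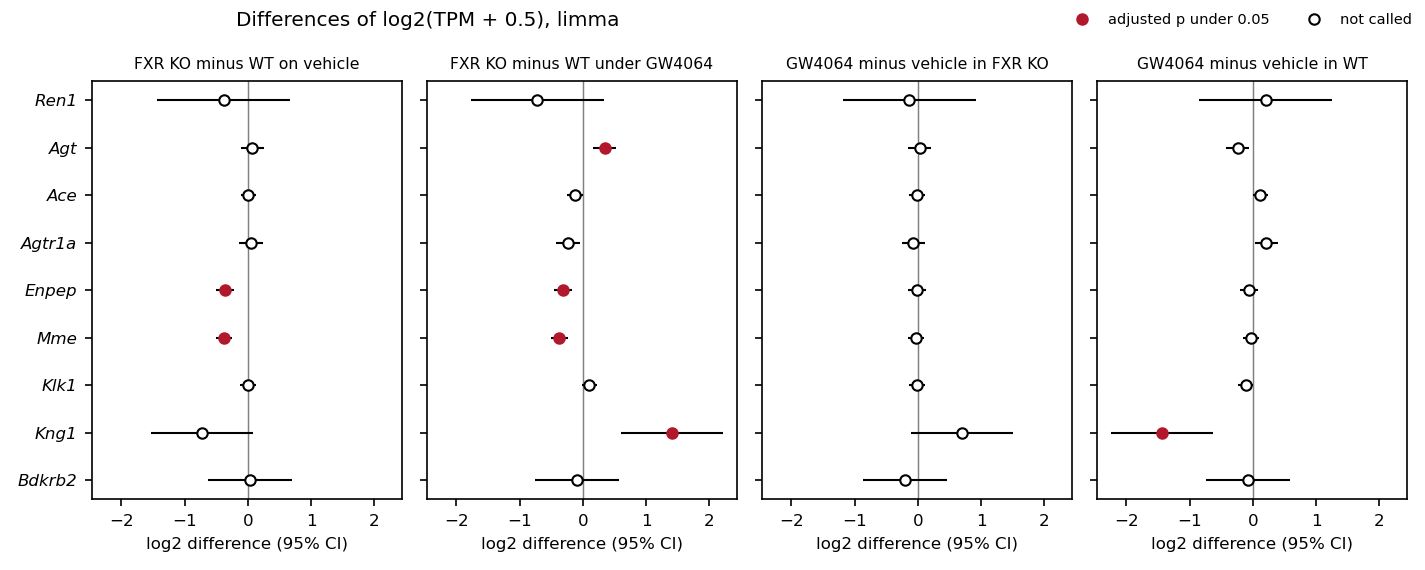
Differences of log2(TPM + 0.5) (x axis) with 95% confidence intervals for the 9 genes (rows) in 4 comparisons (panels); filled points passed an adjusted p of 0.05. Enpep and Mme lie at -0.31 to -0.37 in both comparisons of FXR KO with WT, and the intervals of Ren1, Kng1 and Bdkrb2 are the widest.

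Enpep encodes aminopeptidase A, a brush border and podocyte enzyme that trims angiotensin II to angiotensin III. Its ID lies at chr3:129269177-129332749 (mm10, minus strand). Enpep measured 96.9, 106.0 and 101.1 TPM in FXR KO GW4064 kidneys and 97.6, 95.3 and 116.0 TPM in FXR KO vehicle kidneys, against 123.4, 125.8 and 128.2 TPM in WT GW4064 and 131.3, 133.5 and 128.4 TPM in WT vehicle kidneys. Every FXR KO library was below every WT library, a separation that 7.65% of tested genes showed in that direction. The difference between FXR KO and WT was -0.35 ± 0.06 on vehicle (adjusted p = 0.0065), -0.31 ± 0.06 under GW4064 (adjusted p = 0.00645) and -0.33 ± 0.05 averaged (adjusted p = 0.000338, limma), a change of -20.5%. GW4064 moved Enpep by -0.02 in FXR KO kidneys (95% interval -0.16 to 0.12) and by -0.06 in WT kidneys (-0.20 to 0.08).

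Mme encodes neprilysin, a membrane metallopeptidase of the brush border that converts angiotensin I to a vasodilator peptide and degrades bradykinin and natriuretic peptides. Its ID lies at chr3:63295435-63383713 (plus strand), on the same chromosome as Enpep. Mme measured 108.2, 102.9 and 116.2 TPM in FXR KO GW4064 and 110.0, 108.1 and 114.6 TPM in FXR KO vehicle kidneys, against 154.4, 134.7 and 134.6 TPM in WT GW4064 and 141.8, 145.1 and 144.6 TPM in WT vehicle kidneys. Again no FXR KO library reached the lowest WT library. The difference was -0.37 ± 0.06 on vehicle (adjusted p = 0.00263), -0.37 ± 0.06 under GW4064 (adjusted p = 0.00112) and -0.37 ± 0.04 averaged (adjusted p = 7.29e-05, limma), a change of -22.7%. The GW4064 difference was -0.02 in FXR KO kidneys (95% interval -0.15 to 0.10) and -0.03 in WT kidneys (-0.16 to 0.10).

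Markers of the proximal tubule differed between genotypes in part, where 19.0% of all tested genes were lower and 7.49% higher averaged over treatments. Of 7 markers of its last segment (S3), averaged over treatments, 5 were lower in FXR KO (Slc7a13, Acy3, Slc5a1, Slc22a7 and Slc22a13), 1 was higher (Cyp4b1) and Aadat was not called. Slc5a1, the luminal glucose transporter, averaged 53.3 TPM in FXR KO and 92.3 TPM in WT kidneys, and Cyp4b1, a cytochrome P450, averaged 2594 TPM in FXR KO and 1823 TPM in WT kidneys. The summed S3 level ranged from 4279 to 4873 TPM in FXR KO and from 4251 to 5053 TPM in WT libraries. Cyp4b1 was the largest part of this sum, at 2248 to 2827 TPM in FXR KO and 1723 to 1939 TPM in WT libraries. The overlap of the sums therefore does not show that the other S3 markers were alike. Of 7 markers of S1 and S2, Cubn and Lrp2, the endocytic receptors cubilin and megalin, were lower in FXR KO averaged over treatments, and 5 were not called. On vehicle, where Enpep and Mme were called lower, limma called 0 of these 7, with 1 at an unadjusted p under 0.05 and a median of 0.05. There 3 of the 7 S3 markers were lower and Cyp4b1 higher, where 9.73% of all tested genes were lower and 3.19% higher. Under GW4064, where Enpep and Mme were also called lower, 3 of the 7 S1 and S2 markers were lower (Cubn, Lrp2 and Slc34a1), with a median of -0.19. Of the S3 markers, 5 were lower and Cyp4b1 higher under GW4064, where 11.4% of all tested genes were lower and 7.08% higher. In WT kidneys GW4064 raised 1 of 7 markers of each list, where 4.80% of all tested genes were called. These were Cubn (419 TPM on vehicle and 488 TPM under GW4064) and Slc5a1 (79.6 and 104.9 TPM). The part of the proximal tubule markers in the lower Enpep and Mme was not tested.

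The genes whose profiles over the 12 libraries were most like those of Enpep and Mme were found by the root mean square difference of median-centred log2 values. For Enpep they were Ptpn13 (0.051), Tbc1d16 (0.058) and Zfp444 (0.064), with an SD of Enpep itself of 0.19. For Mme they were Erbb4 (0.064), Zfp799 (0.065) and Tmem229a (0.068), with an SD of Mme of 0.21. Tmem229a, for example, averaged 178 and 185 TPM in FXR KO GW4064 and FXR KO vehicle kidneys, against 234 and 224 TPM in WT GW4064 and WT vehicle kidneys.

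FXR, bound to the retinoid X receptor, is known to bind inverted repeats of a hexamer close to AGGTCA with a single base between them. The stretches upstream of Enpep and Mme are shown because both genes were lower in FXR KO kidneys, and that of Klk1 because it held the most hexamers among the genes with a window. RefSeq (GRCm38.p6) gave windows from 250 bases before to 50 bases after the start for 7 of the 9 genes, 10 windows in all. The 250 bases before the start are printed 5′ to 3′ on the strand of the gene, with capitals marking AGGTCA on either strand. For Mme, which has several starts, the most upstream one is given.
Enpep, chr3:129332750-129332999, minus strand: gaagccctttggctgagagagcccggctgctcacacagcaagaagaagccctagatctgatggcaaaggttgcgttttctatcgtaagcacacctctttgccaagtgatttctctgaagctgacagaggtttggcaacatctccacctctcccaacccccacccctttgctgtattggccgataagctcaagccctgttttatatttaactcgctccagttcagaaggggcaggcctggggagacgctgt
Mme, chr3:63294961-63295210, plus strand: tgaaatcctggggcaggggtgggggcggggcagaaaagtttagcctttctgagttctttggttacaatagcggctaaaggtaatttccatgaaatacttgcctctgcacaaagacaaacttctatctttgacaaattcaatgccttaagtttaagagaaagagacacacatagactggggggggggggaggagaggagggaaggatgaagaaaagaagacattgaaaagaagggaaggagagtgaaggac
Klk1, chr7:44225110-44225359, plus strand: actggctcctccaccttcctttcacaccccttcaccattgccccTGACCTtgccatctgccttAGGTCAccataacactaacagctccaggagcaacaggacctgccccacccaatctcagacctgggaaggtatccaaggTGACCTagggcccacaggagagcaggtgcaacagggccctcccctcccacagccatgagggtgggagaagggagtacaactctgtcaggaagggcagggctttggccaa
Neither the Enpep nor the Mme stretch holds the hexamer, and Klk1 holds 3 copies, beginning 206, 187 and 109 bases before the start. Of the 10 windows, 2 held AGGTCA (that of Klk1 and that of a second start of Ace), beside 16.3% of 32851 RefSeq windows. None of the 10 held AGGTCANTGACCT, the inverted repeat with 1 base between, which 3 of the 32851 windows did (0.00913%). The hexamers of the inverted repeat are the same hexamers counted singly.

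Klk1, the tissue kallikrein whose upstream stretch holds these hexamers, was called in none of the comparisons. Its ID lies at chr7:44225360-44229622 (plus strand). Klk1 measured 3642, 3591 and 3387 TPM in FXR KO GW4064 and 3445, 3850 and 3446 TPM in FXR KO vehicle kidneys, against 3335, 3301 and 3250 TPM in WT GW4064 and 3655, 3651 and 3391 TPM in WT vehicle kidneys. The 3 WT GW4064 libraries were the lowest of the 12, and 16.7% of tested genes were likewise lower in all WT GW4064 than in all WT vehicle libraries. The difference between GW4064 and vehicle was -0.01 in FXR KO kidneys (95% interval -0.14 to 0.11) and -0.11 in WT kidneys (-0.23 to 0.009, adjusted p = 0.296, limma). FXR KO and WT differed by 0.05 averaged over treatments (-0.03 to 0.14). Of all windows of 100 bases in the Klk1 transcript, 6.08% also occur in a Klk1b transcript, so reads can be shared with those genes.

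Angiotensinogen (Agt, chr8:124556587-124569707, minus strand), the renin substrate, was higher in FXR KO than in WT kidneys under GW4064. Agt measured 103.3, 83.4 and 100.6 TPM in FXR KO GW4064 and 85.1, 102.5 and 93.3 TPM in FXR KO vehicle kidneys, against 76.5, 75.8 and 72.9 TPM in WT GW4064 and 83.7, 93.9 and 89.1 TPM in WT vehicle kidneys. The 3 WT GW4064 libraries were the 3 lowest of the 12, and the other groups overlapped. Under GW4064, FXR KO exceeded WT by 0.34 ± 0.08 (adjusted p = 0.0157), and averaged over treatments by 0.21 ± 0.06 (adjusted p = 0.0251, limma). The first call was lost without WT GW4064 replicate 3 or FXR KO GW4064 replicate 1 or 3 (adjusted p up to 0.0587). The averaged call was lost on leaving out any 1 of 5 libraries, WT vehicle replicate 1, WT GW4064 replicate 3, FXR KO vehicle replicate 2 and FXR KO GW4064 replicates 1 and 3 (adjusted p up to 0.0608). In WT kidneys GW4064 differed from vehicle by -0.24 ± 0.08 (adjusted p = 0.142), which passed the threshold when only the WT libraries were fitted (adjusted p = 0.0379). The interaction, the GW4064 change in FXR KO minus that in WT, was 0.27 ± 0.12 (adjusted p = 0.247), so the GW4064 changes of Agt were not shown to differ between genotypes. The profiles most like that of Agt were those of Slc2a9, a urate transporter (0.078), Tnip2 (0.081) and Shld2 (0.086), where the SD of Agt was 0.17.

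Renin (Ren1, chr1:133350674-133360319, plus strand), the enzyme that sets the pace of the cascade, varied more between libraries of a group than nearly any gene at its level. Ren1 measured 141.7, 23.5 and 71.5 TPM in FXR KO GW4064 and 54.3, 95.4 and 61.5 TPM in FXR KO vehicle kidneys, against 97.6, 104.7 and 105.8 TPM in WT GW4064 and 110.7, 91.5 and 69.7 TPM in WT vehicle kidneys. The highest and the lowest library were both FXR KO GW4064 kidneys, 6.03-fold apart, while the 6 WT libraries spanned 1.59-fold. The pooled SD within groups was 0.70 on the log2 scale, larger than that of 97.3% of tested genes and of 99.6% of the 3027 genes within 2-fold of its level, beside a median of 0.116 over all tested genes. FXR KO and WT differed by -0.38 ± 0.48 on vehicle, -0.72 ± 0.48 under GW4064 and -0.55 ± 0.34 averaged, and none was called (adjusted p = 0.629, 0.342 and 0.256, limma). Without FXR KO GW4064 replicate 1, the highest library, the difference was -1.31 under GW4064 (adjusted p = 0.0425) and -0.85 averaged (adjusted p = 0.036). Without FXR KO GW4064 replicate 2, the lowest library, it was -0.03 under GW4064 (adjusted p = 0.965) and -0.20 averaged (adjusted p = 0.488). GW4064 differed from vehicle by -0.14 in FXR KO kidneys (95% interval -1.19 to 0.91) and by 0.20 in WT kidneys (-0.85 to 1.25).

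The Ren1 ID shares its span with the ID of Ren2, a renin duplicate that some mouse strains carry and C57BL/6 mice lack. The Ren2 ID held 0 to 2.47 TPM, at most 2.53% of the Ren1 and Ren2 total in any library, so the split between the IDs moved Ren1 little. As both IDs lie on the same span, their split cannot show whether any library held transcripts of a Ren2 copy. Akr1b7, an aldo-keto reductase made by renin cells, followed Ren1 from library to library. Akr1b7 measured 7.62, 2.32 and 5.57 TPM in FXR KO GW4064 and 3.29, 5.05 and 3.51 TPM in FXR KO vehicle kidneys, against 7.23, 5.99 and 6.40 TPM in WT GW4064 and 4.64, 5.39 and 3.72 TPM in WT vehicle kidneys. Every WT GW4064 library exceeded every WT vehicle library for Akr1b7, a difference that was not called, while Ren1 overlapped between these groups. Over the 12 libraries, Pearson's r of the log2 values of Ren1 and Akr1b7 was 0.887 and Spearman's rho 0.804. Without the 2 libraries farthest from the median of Ren1, r was 0.761. Within genotypes r was 0.939 over 6 FXR KO and 0.63 over 6 WT libraries. By r, Akr1b7 ranked 2 of 14487 genes, after Dnlz (0.916), a mitochondrial chaperone partner. These values describe libraries that share their RNA pool and depth. Mural and smooth muscle genes showed no common direction, with r of 0.486 for Cnn1, 0.465 for Rgs5, 0.17 for Rergl, 0.167 for Myh11, -0.06 for Pdgfrb, -0.627 for Acta2 and -0.683 for Tagln. Without the same 2 libraries r was, in that order, -0.215, -0.059, 0.085, -0.425, 0.009, -0.668 and -0.444.

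**Figure D3:**
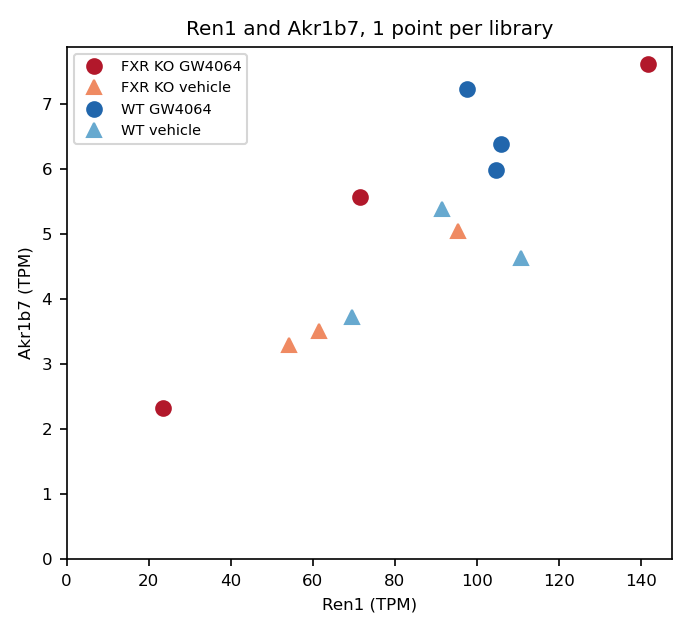
Ren1 (x axis, TPM) against Akr1b7 (y axis, TPM), 1 point per library, both axes from 0, coloured by group. The lowest library (23.5 and 2.32 TPM) and the highest (141.7 and 7.62 TPM) of both genes are FXR KO GW4064 kidneys.

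Of 13 tested of 16 listed genes that control renin release, averaged over treatments, Gja5, Gja4 and Creb1 (3 of 13) were lower and Casr (1 of 13) higher in FXR KO, shares near the 19.0% lower and 7.49% higher among all tested genes. Gja5, the connexin that couples renin cells to the endothelium, averaged 3.46 ± 0.34 TPM in FXR KO and 5.0 ± 0.56 TPM in WT kidneys (SD, n = 6 each), a difference of -0.47 ± 0.09 (adjusted p = 0.00341, limma). Gja4, another connexin, differed by -0.38 (adjusted p = 0.0264), Creb1, a cyclic AMP-responsive factor, by -0.14 (adjusted p = 0.0493) and Casr, the calcium-sensing receptor, by 0.12 (adjusted p = 0.0417). The call of Gja4 was lost on leaving out any 1 of 6 libraries, and those of Creb1 and Casr on leaving out any 1 of 10. On vehicle limma called 0 of 13, where 12.9% of all tested genes were called. Of the 13, 5 had an unadjusted p under 0.05, and Gja5 was nearest to the threshold (adjusted p = 0.0504, limma). Under GW4064 Gja5 and Creb1 were lower and Adcy6, an adenylyl cyclase, higher in FXR KO (0.14 ± 0.04, adjusted p = 0.0367, limma), where 11.4% of all tested genes were lower and 7.08% higher. These calls under GW4064 were lost on leaving out any 1 of 2 libraries for Gja5, 11 for Creb1 and 5 for Adcy6. In WT kidneys GW4064 lowered Adcy6 alone (-0.16 ± 0.04, adjusted p = 0.0395, limma), where 4.80% of all tested genes were called. That call was lost on leaving out any 1 of 8 libraries. Of 10 markers of renin and mural cells, Rgs5, Pdgfrb and Rergl were lower in FXR KO on average and none higher, beside 19.0% of all tested genes lower, and Rgs5 averaged 67.8 TPM in FXR KO and 80.4 TPM in WT kidneys. The call of Pdgfrb was lost on leaving out any 1 of 9 libraries and that of Rergl on leaving out any 1 of 4. Of 7 endothelial markers, 4 were lower (Ehd3, Emcn, Kdr and Tek) and Flt1 higher in FXR KO, beside the same 19.0% lower and 7.49% higher among all tested genes. The part of these cells in the Ren1 and Gja5 values was not tested.

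Angiotensin-converting enzyme (Ace, chr11:105967945-105989964, plus strand), which makes angiotensin II and degrades bradykinin, was the steadiest of the members near 100 TPM. Ace measured 96.6, 106.4 and 109.0 TPM in FXR KO GW4064 and 99.9, 109.3 and 105.6 TPM in FXR KO vehicle kidneys, against 106.1, 114.1 and 119.8 TPM in WT GW4064 and 106.0, 104.4 and 101.8 TPM in WT vehicle kidneys. The 12 libraries spanned 1.24-fold. The 2 FXR KO groups overlapped each other, and the lowest WT GW4064 library lay barely above the highest WT vehicle library. FXR KO and WT differed by -0.06 averaged over treatments (95% interval -0.14 to 0.03). GW4064 differed from vehicle by -0.01 in FXR KO (-0.14 to 0.11) and by 0.12 in WT kidneys (-0.005 to 0.25, adjusted p = 0.279, limma). The ID of Gm11651, a gene model on the other strand, overlaps Ace and was listed at 0 in every library.

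Agtr1a (chr13:30336356-30382867, plus strand) encodes the main angiotensin II receptor of the mouse kidney. Agtr1a measured 33.0, 35.0 and 34.4 TPM in FXR KO GW4064 and 36.4, 35.7 and 35.4 TPM in FXR KO vehicle kidneys, against 37.1, 37.2 and 46.9 TPM in WT GW4064 and 32.4, 33.8 and 37.6 TPM in WT vehicle kidneys. Under GW4064 the 3 FXR KO libraries lay below the 3 WT libraries, as in 22.7% of tested genes, and the difference of -0.23 ± 0.09 was not called (adjusted p = 0.0825, limma). On vehicle it was 0.05 (95% interval -0.13 to 0.24). GW4064 differed from vehicle by -0.07 in FXR KO (95% interval -0.26 to 0.12) and by 0.21 in WT kidneys (0.03 to 0.40, adjusted p = 0.191). Related receptors reached at most 0.232 TPM for Agtr1b, 0.173 TPM for Agtr2 and 0.658 TPM for Mas1, the receptor of a vasodilator angiotensin peptide. No window of 100 bases is shared between the transcripts of Agtr1a and Agtr1b.

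Kininogen 1 (Kng1, chr16:23058300-23082078, plus strand), a precursor of kinins, gave the single GW4064 call among the 9 genes. Kng1 measured 5.02, 5.52 and 6.02 TPM in FXR KO GW4064 and 5.04, 4.99 and 1.16 TPM in FXR KO vehicle kidneys, against 1.63, 1.62 and 2.04 TPM in WT GW4064 and 5.30, 4.94 and 6.69 TPM in WT vehicle kidneys. The values fell into 2 clusters, 4 libraries at 1.16 to 2.04 TPM and 8 at 4.94 to 6.69 TPM. The low cluster held all 3 WT GW4064 libraries and FXR KO vehicle replicate 3. In WT kidneys given GW4064 Kng1 fell by 1.43 ± 0.37 relative to vehicle (adjusted p = 0.0473), and under GW4064 FXR KO exceeded WT by 1.41 ± 0.37 (adjusted p = 0.0198, limma). In FXR KO kidneys the GW4064 difference was 0.70 ± 0.37 (adjusted p = 0.531), and without FXR KO vehicle replicate 3 it was 0.12 (adjusted p = 0.816). The interaction was 2.14 ± 0.52 (adjusted p = 0.0496), where 3.19% of tested genes were called. The WT call and the interaction were each lost on leaving out any 1 of 9 of the 12 libraries (adjusted p up to 0.155 and 0.118), and the FXR KO minus WT call under GW4064 on leaving out any 1 of 4 (up to 0.0645). Without FXR KO vehicle replicate 3, the averaged difference between FXR KO and WT passed the threshold (0.63, adjusted p = 0.00151), whereas with it the difference was 0.34 (adjusted p = 0.354). The deposited coverage of Kng1 was 1.33 to 6.94 reads per base, and its pooled SD within groups was larger than that of 91.2% of the 2830 genes within 2-fold of its level.

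The paralog Kng2, which lies beside Kng1 at chr16:22985852-23029101 on the minus strand, held nearly all kininogen mRNA. Kng2 measured 569.7, 531.3 and 607.7 TPM in FXR KO GW4064 and 532.6, 515.0 and 508.7 TPM in FXR KO vehicle kidneys, against 538.6, 547.7 and 527.5 TPM in WT GW4064 and 562.0, 537.2 and 539.1 TPM in WT vehicle kidneys. Its GW4064 difference in WT kidneys was -0.02 ± 0.05, and FXR KO and WT differed by 0.003 ± 0.03 averaged over treatments, neither called. Of the windows of 100 bases in the Kng1 transcript, 5.80% (125 of 2156) also occur in Kng2, so the low Kng1 level is uncertain to the extent that reads were shared. The profiles nearest to that of Kng1 were not close, with differences of 0.471 for Mir1938, 0.473 for Lox, a collagen-crosslinking oxidase, and 0.518 for Cdkn2b, against an SD of Kng1 of 0.76.

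Among kallikrein relatives, Klk1b5 and Klk1b21 stood above the other Klk1b genes. Klk1b5 ranged from 67.7 to 79.9 TPM in FXR KO and from 64.8 to 80.9 TPM in WT libraries. Klk1b21 measured 0, 0.475 and 46.2 TPM in FXR KO GW4064 and 49.4, 55.6 and 0.721 TPM in FXR KO vehicle kidneys, against 48.3, 48.8 and 47.3 TPM in WT GW4064 and 52.4, 55.7 and 47.7 TPM in WT vehicle kidneys. Klk1b21 was thus near 0 in 3 libraries, all FXR KO, and at 46.2 to 55.7 TPM in 9. Both levels occurred within each FXR KO group, so this split lies among FXR KO libraries, and its cause was not tested. The labels do not give the strain background of the FXR KO mice. Loss of FXR and a difference in background therefore cannot be told apart for any difference between FXR KO and WT. The averaged difference of Klk1b21, -2.95 ± 1.14, was not called (adjusted p = 0.078, limma), and 3.50% of its 100-base windows also occur in Klk1 or another Klk1b gene. Klk1b16, at 0 to 3.29 TPM, was higher in FXR KO than in WT on vehicle (1.51 ± 0.42, adjusted p = 0.0391), a call lost on leaving out any 1 of 6 libraries. The other Klk1b genes reached at most 5.89 TPM in any library.

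**Figure D4:**
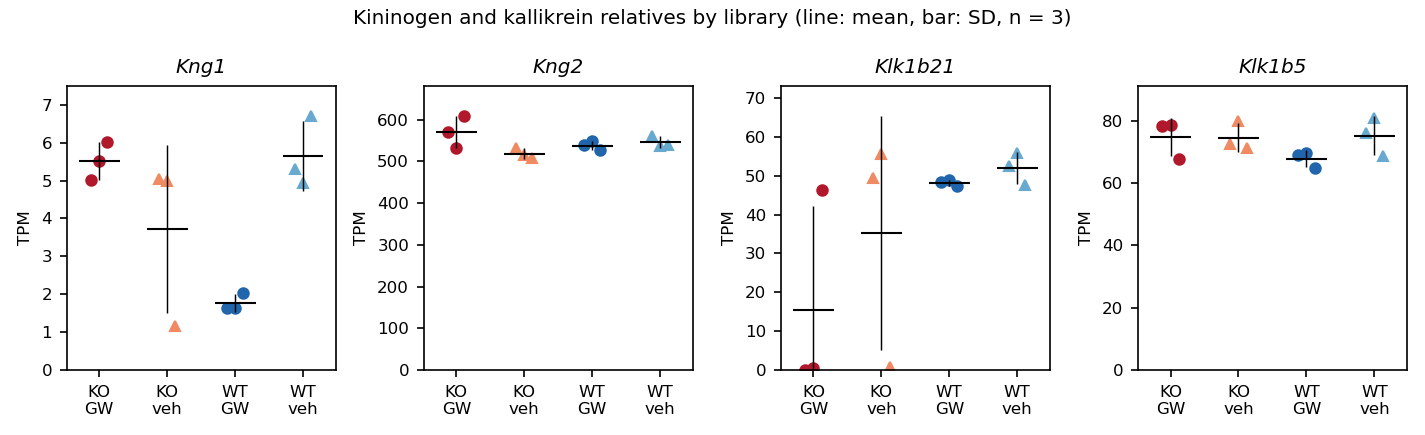
TPM (y axis, from 0) of Kng1, Kng2, Klk1b21 and Klk1b5 in each library (points) by group (x axis), with the mean as a line and the SD as a bar (n = 3). Kng1 is low in the 3 WT GW4064 libraries and 1 FXR KO vehicle library, Klk1b21 is near 0 in 3 FXR KO libraries, and Kng2 and Klk1b5 stay within a narrow range.

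Bdkrb2 (chr12:105563172-105593071, plus strand), the constitutive bradykinin receptor, lay near the 1 TPM of the filter in every group. Bdkrb2 measured 1.08, 0.802 and 0.574 TPM in FXR KO GW4064 and 0.669, 1.27 and 1.14 TPM in FXR KO vehicle kidneys, against 0.782, 0.592 and 1.38 TPM in WT GW4064 and 1.43, 1.08 and 0.524 TPM in WT vehicle kidneys. It passed the filter with 6 libraries at or above 1 TPM, its coverage was 0.691 to 2.15 reads per base, and all groups overlapped. The averaged difference between FXR KO and WT was -0.02 (95% interval -0.49 to 0.45), an interval that holds 0 as well as the difference of Mme. The inducible receptor Bdkrb1 reached at most 0.147 TPM and was listed at 0 in 9 libraries.

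Beyond the 9 genes, further genes were lower in FXR KO kidneys averaged over treatments, mainly peptidases of the kallikrein-kinin list. From the renin-angiotensin list these were Agtrap, which is not a peptidase, and Prcp, a peptidase on both lists. The 2 pathway lists counted here hold 41 other genes, of which 25 were tested. Averaged over treatments, 8 of the 25 were lower in FXR KO and 0 higher, where 19.0% of all tested genes were lower and 7.49% higher. The medians were -0.11 over the 25 genes and -0.06 over all tested genes. With median-of-ratios scaling, 6 of the 25 were lower and 2 higher, and the share of higher genes among all those called was 51.7%, against 28.3% as deposited. On vehicle 5 of 25 were lower and 1 (Klk1b16) higher, where 9.73% and 3.19% of all tested genes were, and the lower genes numbered 1 without WT vehicle replicate 1 or 3 or FXR KO vehicle replicate 2, and 3 without WT vehicle replicate 2, without the variance trend or with median-of-ratios scaling. Of all genes called on vehicle, 24.7% were higher as deposited and 61.3% with median-of-ratios scaling. Under GW4064 6 of 25 were lower and 0 higher, where 11.4% and 7.08% were. The shares of higher genes among all called there were 38.3% as deposited and 48.6% with median-of-ratios scaling. For GW4064 limma called 0 of 25 in FXR KO kidneys and 0 of 25 in WT kidneys, with 5 and 3 of them at an unadjusted p under 0.05. Of all tested genes, 0.0138% and 4.80% were called there.

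Agtrap, which promotes internalisation of the type 1 receptor, averaged 46.1 ± 2.1 TPM in FXR KO and 54.2 ± 4.5 TPM in WT kidneys (SD, n = 6 each), a difference of -0.23 ± 0.04 (adjusted p = 0.00143, limma). Within treatments, Agtrap was called lower under GW4064 (44.9 TPM in FXR KO and 57.5 TPM in WT kidneys) and not on vehicle (47.2 and 50.9 TPM). Prcp, a carboxypeptidase that cleaves angiotensin II and also activates prekallikrein, differed by -0.13 ± 0.04 (adjusted p = 0.0496), a call lost on leaving out any 1 of 10 libraries. Anpep, aminopeptidase N, differed by -0.18 ± 0.08 (adjusted p = 0.126), and Atp6ap2, the (pro)renin receptor, by 0.05 ± 0.03 (adjusted p = 0.228).

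Among the genes called lower, the kinin-degrading enzymes formed the longer group, but not every listed peptidase was called. Averaged over treatments, limma did not call the peptidases Nln, Prep and Lnpep. They averaged 35.9, 22.65 and 115.6 TPM in FXR KO and 32.9, 24.52 and 118.5 TPM in WT kidneys. Xpnpep2, the membrane aminopeptidase P that cuts bradykinin, averaged 8.69 ± 1.51 TPM in FXR KO and 12.9 ± 1.9 TPM in WT kidneys (SD, n = 6 each), a difference of -0.55 ± 0.08 (adjusted p = 0.000667, limma). Xpnpep1, its cytosolic relative, averaged 115.5 ± 11.9 TPM in FXR KO and 142.2 ± 3.1 TPM in WT kidneys (-0.31 ± 0.04, adjusted p = 0.000199). Cpn1, the catalytic subunit of carboxypeptidase N, averaged 49.9 ± 5.9 TPM in FXR KO and 66.6 ± 4.4 TPM in WT kidneys (-0.42 ± 0.07, adjusted p = 0.00123). Dpp4, a dipeptidyl peptidase of the brush border, differed by -0.23 ± 0.03 (adjusted p = 0.000518) and Ece1, an endothelin-converting enzyme that also degrades bradykinin, by -0.20 ± 0.04 (adjusted p = 0.00179). For Agtrap, Xpnpep1, Xpnpep2, Cpn1, Dpp4 and Ece1 (6 of the 25) no FXR KO library reached the lowest WT library, as for 7.65% of all tested genes. The averaged calls of these 6 held under every alternative tried. Within treatments, Cpn1, Dpp4 and Xpnpep2 were called lower in both, Prcp and Xpnpep1 under GW4064 alone and Ece1 on vehicle alone. Cpm, carboxypeptidase M, was lower on vehicle (-0.61 ± 0.13, adjusted p = 0.014) and differed by 0.02 ± 0.13 under GW4064, and its averaged call (-0.30 ± 0.09, adjusted p = 0.0367) was lost on leaving out any 1 of 9 libraries.

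**Figure D5:**
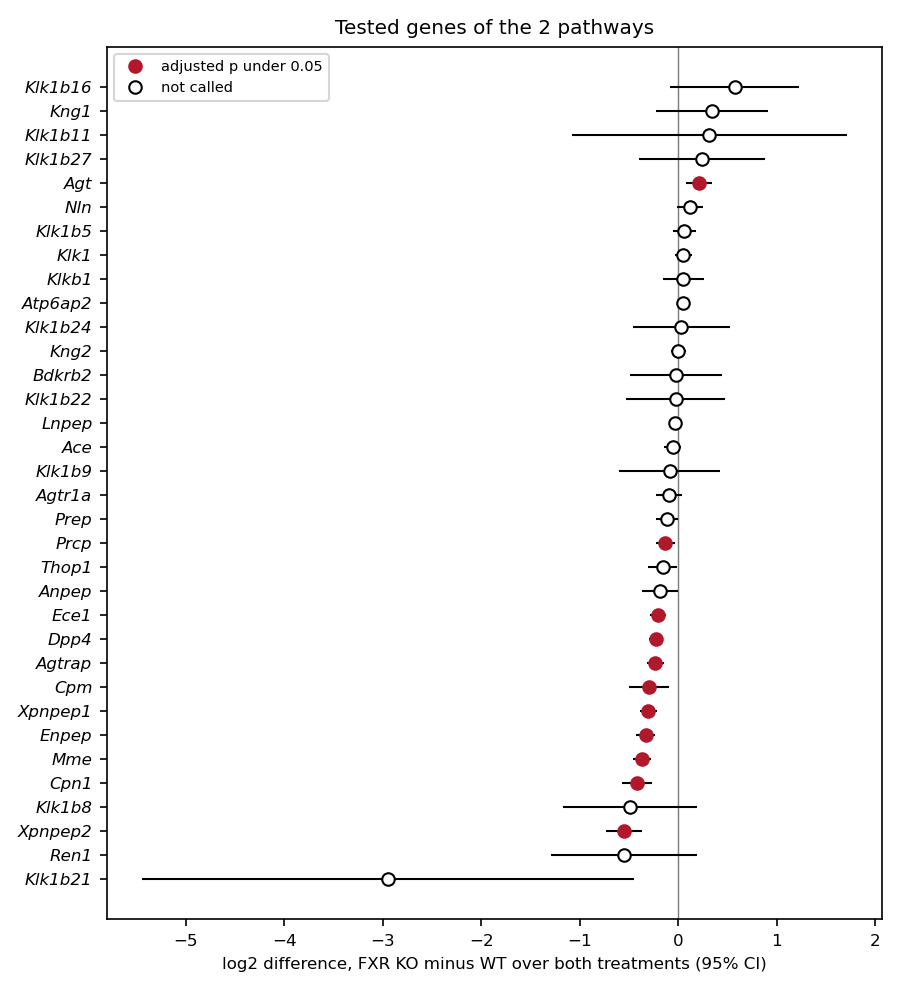
Differences between FXR KO and WT averaged over both treatments (x axis, log2(TPM + 0.5), with 95% confidence intervals) for the tested genes of both pathways (rows), ordered by size; filled points passed an adjusted p of 0.05. The filled points below 0 are mostly peptidases, as are many of the other genes shown, and run from Prcp at -0.13 to Xpnpep2 at -0.55. Agt is the only filled point above 0, and the interval of Klk1b21 is the widest.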

How the data were processed

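Per the labels, total RNA of whole kidneys was extracted with Trizol and made into stranded total RNA libraries. The submitters' processing notes name mm10 and the tools HISAT2, StringTie and Cufflinks. Their roles and versions, and the annotation, are not stated there. The authors deposited 1 table per library with TPM (scaled to gene length and library total), FPKM (a constant multiple of TPM) and coverage, a signal of mean reads per base. FPKM and coverage served for depth, 2.86 to 4.27 mapped gigabases per library. Entries of 1 Entrez ID were summed (113 to 142 IDs per library), and 24462 of 24532 IDs had a symbol in the RefSeq table of GRCm38.p6.

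TPM of at least 1 in at least 3 libraries was required (14488 genes), and log2(TPM + 0.5) was fitted with limma 3.58.1 (R 4.3.3) with a mean-variance trend, all 12 libraries and 1 mean per group. Such differences understate changes of genes with low TPM. P-values were adjusted by Benjamini-Hochberg within each of 6 comparisons. The fit was tested on simulated data. The members and gene lists were chosen with earlier results of these data known. Genes were named by rule: the 9 members, their relatives, called genes of the pathway and renin release lists, and the 3 nearest profiles of each called member. 1 gene of the pathway list is not reported here and is left out of its counts. Alternatives were other pseudocounts (0.1 and 1), filters (none, mean of 5 TPM), median-of-ratios scaling, no variance trend, only the groups compared, a replicate block and leaving out each library. Correlations with Ren1 and the description of clusters of values were added after seeing the data. Figures used Python 3.11.15, pandas 2.3.3, numpy 2.4.6 and matplotlib 3.10.9.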

Additional observations from a re-analysis of the deposited data

Results flagged for a closer look

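The GW4064 change of Kng1 differed between genotypes by 2.14 ± 0.52 on the log2 scale (FXR KO change minus WT change, adjusted p = 0.0496, limma), and a test of that difference drew attention to it. GW4064 differed from vehicle by 0.70 in FXR KO kidneys and by -1.43 in WT kidneys. FXR KO vehicle replicate 3 held 1.16 TPM, beside 5.04 and 4.99 TPM in the other two libraries of its group, and the interaction was lost without any of 9 libraries (adjusted p up to 0.118).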

How the results depend on the processing

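The number of the 9 genes called for GW4064 in WT kidneys was 1, but 0 with a pseudocount of 0.1, without a filter, with a mean of 5 TPM required (which removes Kng1), with median-of-ratios scaling, without the variance trend and with the replicate block, and 2 when only the groups compared were fitted. The number called for the interaction, also 1, was 0 under the same settings except the last, which was not run for it or for the averaged comparison. Leaving out 1 library gave 0 to 1 in both, and 2 to 4 (4 with all libraries) between FXR KO and WT under GW4064, the 2 without FXR KO GW4064 replicate 3. The lost calls are those of Kng1 (adjusted p 0.0549 to 0.0798 under those settings), and of Agt and Kng1 under GW4064. With the replicate block, Kng1 in WT had an adjusted p of 0.0751 and the interaction 0.0734. Same-numbered libraries did not deviate together (correlations -0.075 to 0.061, 0 of 12 pairs over 0.1), and 8 of 24 cases correlated best with their own number, so no pairing by number was seen over all tested genes. Over all tested genes, 2 were called for GW4064 in FXR KO kidneys, 0 with the replicate block, without the variance trend or with only the groups compared, 1 with a pseudocount of 0.1 or median-of-ratios scaling, and 0 to 51 on leaving out 1 library. Leaving out 1 library lowered the count to as few as 334 of 696 for GW4064 in WT, 926 of 1872 for FXR KO minus WT on vehicle, 1726 of 2677 under GW4064 and 216 of 462 for the interaction. The calls of Enpep and Mme held under every alternative.

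Of 1050 member values under alternatives, 46 changed sign, 41 of them on leaving out 1 library. All 46 were uncalled (adjusted p of at least 0.50), and the cause was not tested. With median-of-ratios scaling, Mme differed by 0.00474 for GW4064 in WT, Ace by 0.00419 and Bdkrb2 by 0.0165 between genotypes averaged, and the interactions of Enpep and Mme were -0.0132 and -0.0497. Leaving out 1 library gave these ranges. For FXR KO minus WT, Bdkrb2 ran from -0.151 to 0.0894 averaged, -0.216 to 0.243 on vehicle and -0.254 to 0.138 under GW4064, and on vehicle Ace from -0.0184 to 0.0461 and Klk1 from -0.0485 to 0.0317. For GW4064 in FXR KO, the ranges were -0.0486 to 0.0382 for Ace, -0.0364 to 0.127 for Agt, -0.0714 to 0.0698 for Enpep, -0.0418 to 0.0384 for Klk1, -0.0710 to 0.0163 for Mme and -0.727 to 0.556 for Ren1. For GW4064 in WT they were -0.339 to 0.120 for Bdkrb2 and -0.0950 to 0.00382 for Mme. For the interaction they were -0.328 to 0.131 for Bdkrb2, -0.0120 to 0.129 for Enpep, -0.0418 to 0.0700 for Mme and -0.931 to 0.352 for Ren1. Coverage was a few reads per base for Kng1 and Bdkrb2, and the part of depth in their spread was not tested.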
